A study of Mus musculus with 10 samples.

Results

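Water channel genes and genes of the guanylin pathway were followed in the mouse colorectum during colitis caused by dextran sulfate sodium (DSS), a polysaccharide that damages the colonic lining. They were 8 of the 23284 genes and other features listed: the aquaporins Aqp1, Aqp3, Aqp4, Aqp7 and Aqp8, the peptide hormone genes Guca2a and Guca2b, and their receptor gene Gucy2c. They were found by gene symbol and were chosen by their log2 values in the 10 libraries, compared over all 5 groups. Those values are therefore a description, and the test calls listed for them below are not read as evidence.

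RNA was sequenced from the colorectum of BALB/c mice aged 7 weeks, in 10 libraries, 2 per group. In 4 groups the mice received 2% DSS and a small RNA carried by sCA, a carbonate apatite nanoparticle, into the tail vein on days 1, 2 and 3. These were miR-29a (tissue on day 4), miR-29b (day 4), the negative control NC-miR (day 4) and NC-miR with tissue on day 2, whose labels also list injections up to day 3. The normal mice were untreated and sampled on day 0. They had neither DSS nor sCA nor NC-miR, so in every comparison with them DSS, the injections and the day cannot be told apart. The labels do not say whether animals were pooled, so the spread between the 2 libraries of a group may be partly technical, and p-values measure only that spread.

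Aquaporins are membrane pores through which water, and in some members glycerol, follows its gradient. In the colon, water follows absorbed sodium and chloride across the surface epithelium. Guanylin and uroguanylin are secreted by the intestinal epithelium and bind guanylate cyclase C on the apical side of epithelial cells. The cyclic GMP made there acts through cyclic GMP-dependent protein kinases to open the chloride channel Cftr and to inhibit the sodium-proton exchanger Slc9a3, which moves salt and water toward the lumen.

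The injected small RNAs share a seed, the part of a miRNA that pairs with its targets, and their mature sequences are shown because every miR-29 comparison rests on them (RefSeq, GRCm38.p6, 5′ to 3′, seed bases 2 to 8 in capitals):
mmu-miR-29a-3p: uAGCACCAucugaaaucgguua
mmu-miR-29b-3p: uAGCACCAuuugaaaucaguguu
The labels name the RNAs without an arm, and the 3p arms are shown as the RefSeq entries of those names. They carry the same base at 18 of their first 22 positions. The mature miR-29a lies at chr6:31062673-31062694 on the minus strand, and miR-29b is made from 2 loci, chr6:31063025-31063047 (minus strand) and chr1:195037091-195037113 (plus strand). In the longest annotated 3′ UTR of each of the 8 genes (GENCODE M21), the match to the seed (TGGTGCT) was absent from 7, among them the 3955 bases of Aqp4. It occurred once, in Aqp7, at bases 756 to 762 of a 1172-base 3′ UTR, shown with the match in capitals:
Aqp7 site: cagtttatatgTGGTGCTgggatcaaacc
The same 7 letters occurred in 2754 of 21027 genes (13.1%), and in 523 of the 1576 genes whose 3′ UTR was within 20% of the length of that of Aqp4 (33.19%). A match of letters is a description and not a site of action.

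The guanylin genes are neighbours on chromosome 4: Guca2a at chr4:119637704-119639471 on the plus strand and Guca2b at chr4:119656607-119658954 on the minus strand (GRCm38), transcribed toward each other with 17135 bases between them. Their upstream sequences are shown because these neighbours are compared below, with that of Aqp8 (chr7:123462291-123468004, plus strand), which had the widest range of the 8 genes (RefSeq, GRCm38.p6, the 250 bases before the start on the gene's strand; capitals mark a GTTAAT match):
Guca2a (chr4:119637482-119637731, plus strand): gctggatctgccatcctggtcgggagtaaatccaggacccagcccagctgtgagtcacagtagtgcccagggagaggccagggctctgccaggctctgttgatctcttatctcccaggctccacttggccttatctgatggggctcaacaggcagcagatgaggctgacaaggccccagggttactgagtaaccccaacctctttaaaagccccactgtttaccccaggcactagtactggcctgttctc
Guca2b (chr4:119658946-119659195, minus strand): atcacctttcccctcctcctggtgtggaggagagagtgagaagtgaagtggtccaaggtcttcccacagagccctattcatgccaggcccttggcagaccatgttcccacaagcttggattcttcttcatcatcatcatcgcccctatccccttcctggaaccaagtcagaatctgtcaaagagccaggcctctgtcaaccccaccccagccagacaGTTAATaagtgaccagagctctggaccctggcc
Aqp8 (chr7:123462044-123462293, plus strand): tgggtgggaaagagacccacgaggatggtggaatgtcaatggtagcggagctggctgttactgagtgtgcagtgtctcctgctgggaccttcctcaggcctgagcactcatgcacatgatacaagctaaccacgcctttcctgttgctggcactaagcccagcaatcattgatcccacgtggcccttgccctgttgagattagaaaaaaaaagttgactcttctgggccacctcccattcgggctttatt
Promoter windows of 300 bases (250 before to 50 after the start) were matched for 6 of the 8 genes and searched on both strands for TATAAA (the core promoter element), GTTAAT (part of the site of the liver and gut factor HNF1) and TTTATG (the site of the gut factors Cdx1 and Cdx2). No match overlapped another. Guca2b held GTTAAT from position -33 relative to its start, and Aqp3 held TATAAA from position -29. No other match was found in the 6 genes. Among 32851 mouse promoter windows, 13.62% held TATAAA, 7.099% GTTAAT and 11.85% TTTATG.

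The deposited value of a gene is the log2 ratio to a baseline of that gene, so values compare libraries for 1 gene and say nothing of levels between genes. A feature can also have a floor of its own. It is the feature's lowest value after each library's most frequent value (the floor constant) is subtracted, where more than 1 library shares it. A signal at the floor is taken as too low to be told apart. Of the 8 genes, 6 were above the floor in all 10 libraries, while Aqp3 was at it in all 10 and Aqp7 in 8. The rule cannot mark a gene that reached its floor in only 1 library. Depth is unknown, since the files hold no counts. Between 12677 and 12937 features lay above the floor per library, and none of 20 genes used by every cell or by gut epithelium was at it in any library. The first NC-miR day 4 library stood apart in markers of squamous epithelium, the lining of the anal canal: 9 of 12 were above the floor in some library, and their mean was 3.76 there against -0.44 to -0.06 in the other 9 libraries. Krt5 had 3.89 and Krt14 6.05 in that library, while Krt4, Trp63 and Dsg3 were at the floor in all 10.

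Guca2a encodes guanylin, the main ligand of guanylate cyclase C in the colon. It was highest in miR-29b mice, next in normal mice, and lower in the other DSS groups. Its log2 values were 0.86 and 1.06 in miR-29b mice, -0.35 and 0.11 in miR-29a mice, 0.18 and -0.38 in NC-miR day 4 mice, -0.23 and -0.20 in NC-miR day 2 mice, and 0.52 and 0.45 in normal mice. Both miR-29b libraries lay above all 8 others, and both normal libraries above the 6 remaining. The groups miR-29a, NC-miR day 4 and NC-miR day 2 overlapped one another.

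The difference of Guca2a between miR-29b and NC-miR day 4 mice was 1.06 ± 0.22 on the log2 scale (limma standard error, n = 2 per group), a fold of 2.08. Between miR-29a and miR-29b mice it was -1.08 ± 0.22. The miR-29a minus NC-miR day 4 difference was -0.018 ± 0.22, and it was -0.30 without the second NC-miR day 4 library and 0.26 without the first. The difference from normal mice was -0.59 ± 0.22 in NC-miR day 4 mice and -0.70 ± 0.22 in NC-miR day 2 mice. The NC-miR day 4 value rested on its libraries unequally: it was -0.87 without the first, which holds the squamous markers, and -0.30 without the second. In whole tissue, fewer cells of a type and less RNA per cell cannot be told apart.

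Markers of the epithelial cells that make guanylin moved in part with it. The goblet cell list (9 of 10 markers found, all above the floor in some library) averaged 0.14 to 0.32 in the miR-29b libraries, -0.14 to -0.0075 in miR-29a, -0.22 to -0.018 in NC-miR day 4, -0.12 to -0.027 in NC-miR day 2 and -0.34 to -0.25 in normal libraries. The miR-29b libraries were thus the highest for these markers as for Guca2a, whereas the normal libraries were the lowest for the markers and second for Guca2a. Krt8 and Krt19 are keratins of simple epithelium, named after their values were seen. In the miR-29b libraries Krt8 had 0.54 and 0.67, and Krt19 had 0.56 and 0.82. Neither exceeded 0.23 in any other library. The crypt base and cycling list averaged -0.97 to -0.12 in the miR-29b and 0.17 to 0.25 in the normal libraries. Elsewhere it averaged -0.073 to -0.055 in miR-29a, -0.13 to 0.44 in NC-miR day 4 and -0.26 to 0.23 in NC-miR day 2. The second miR-29b library (-0.12) lay among these values, and only the first lay below them. The surface colonocyte list averaged 0.24 to 0.29 in the miR-29b and -0.21 to -0.029 in the normal libraries. The part of these markers in the Guca2a difference was not tested.

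Guca2b encodes uroguanylin, the related ligand that is made mostly in the small intestine. Its log2 values were -0.27 and 0.84 in miR-29b mice, -0.018 and -0.061 in miR-29a mice, -0.15 and -0.16 in NC-miR day 4 mice, -0.28 and -0.11 in NC-miR day 2 mice, and 0.32 and 0.090 in normal mice. The second miR-29b library held the highest value of the 10 and the first lay near the lowest, so that group covered nearly the whole range. The miR-29b minus NC-miR day 4 difference, 0.44 ± 0.30, was -0.12 without the second miR-29b library and 1.00 without the first. Both normal libraries lay above the miR-29a, NC-miR day 4 and NC-miR day 2 libraries, with differences of -0.36 ± 0.30 for NC-miR day 4 and -0.40 ± 0.30 for NC-miR day 2. Across the 10 libraries Guca2a and Guca2b had a Pearson r of 0.61, given as a description, since both take part of their range from the same miR-29b library.

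Gucy2c (chr6:136697284-136781765, minus strand) encodes guanylate cyclase C, the receptor of both peptides, and varied least of the 6 genes. Its log2 values were -0.072 and 0.32 in miR-29a mice, 0.22 and 0.20 in miR-29b mice, 0.18 and 0.13 in NC-miR day 4 mice, -0.10 and 0.092 in NC-miR day 2 mice, and -0.11 and -0.24 in normal mice. Every DSS library lay above both normal libraries, although the gap between the lowest DSS and the highest normal value was small. Over all DSS groups the difference from normal was 0.29 ± 0.12, a fold of 1.23. Neither miR-29 group was far from NC-miR day 4, at -0.031 ± 0.16 for miR-29a and 0.053 ± 0.16 for miR-29b, and the miR-29a value was -0.23 without the second miR-29a library and 0.17 without the first. In miR-29a, NC-miR day 4 and NC-miR day 2 mice, the receptor gene thus lay above normal where Guca2a lay below it.

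Aqp8 (chr7:123462291-123468004, plus strand) encodes a water channel of the apical membrane of surface colonocytes. It had the widest range of the 8 genes, 2.35 on the log2 scale or 5.09-fold, with the highest values in miR-29a mice and the lowest in normal mice. Its log2 values were 0.89 and 1.00 in miR-29a mice, 0.32 and 0.49 in miR-29b mice, -0.072 and 0.16 in NC-miR day 4 mice, 0.20 and 0.21 in NC-miR day 2 mice, and -0.44 and -1.35 in normal mice. No group overlapped its neighbour in the order of means, though the nearest values of NC-miR day 4 and day 2 were 0.16 and 0.20. How often features show such an order was not counted. Both normal libraries lay below all 8 DSS libraries, a separation seen in 5.74% of all features tested.

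Over all DSS groups, the Aqp8 difference from normal was 1.30 ± 0.21, a fold of 2.45. The normal libraries lay far apart, and this difference was 0.84 without the second of them and 1.75 without the first. Of the treated groups, miR-29a lay 0.90 ± 0.26 above NC-miR day 4, a fold of 1.87, and 0.54 ± 0.26 above miR-29b, while miR-29b lay 0.36 ± 0.26 above NC-miR day 4. The NC-miR groups lay 0.94 ± 0.26 (day 4) and 1.10 ± 0.26 (day 2) above normal. Without the second normal library these were 0.49 (day 4) and 0.65 (day 2), and without the first 1.39 (day 4) and 1.55 (day 2).

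Aqp4 (chr18:15389496-15410982, minus strand) encodes a water channel of the basolateral membrane of epithelial cells, also found in glia and skeletal muscle. It was highest in NC-miR day 4 mice and lowest in normal mice. Its log2 values were -0.37 and -0.16 in miR-29a mice, 0.46 and -0.18 in miR-29b mice, 1.13 and 0.97 in NC-miR day 4 mice, -0.088 and 0.26 in NC-miR day 2 mice, and -0.86 and -0.67 in normal mice. Both NC-miR day 4 libraries lay above all 8 others and both normal libraries below all 8 others.

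The Aqp4 difference between NC-miR day 4 and normal mice was 1.82 ± 0.22, a fold of 3.52, and between NC-miR day 4 and NC-miR day 2 mice 0.97 ± 0.22. Relative to NC-miR day 4, Aqp4 was lower by a log2 difference of -1.32 ± 0.22 in miR-29a mice (0.402 of its level) and of -0.92 ± 0.22 in miR-29b mice (0.530 of its level). The miR-29b libraries lay apart, and that difference was -0.59 without the second and -1.24 without the first. In miR-29a and miR-29b mice Aqp4 was still above normal in each of the 4 libraries. Both miR-29 comparisons share the same NC-miR day 4 libraries, so a high value there enters both.

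In NC-miR day 4, Aqp4 was 1.13 in the library with the squamous markers and 0.97 in the other. The difference from normal was 1.72 to 1.91 with 1 library left out at a time. The part of squamous tissue in the Aqp4 differences was not tested. Markers of the other cells that make Aqp4 were set beside these values. Of 7 enteric glia markers, 6 were above the floor in some library, and the list's mean was -0.53 to 0.12 in NC-miR day 4 libraries against 0.30 to 0.32 in normal libraries. Of 10 skeletal muscle markers, 5 were above the floor in some library, and 5 were at it in all (Myh4, Myh2, Tnnc2, Actn3 and Atp2a1). That list's mean was 0.031 to 0.28 in miR-29a, 0.18 to 0.45 in miR-29b, -0.23 to 0.062 in NC-miR day 4, -0.031 to 0.21 in NC-miR day 2 and -0.70 to 0.40 in normal libraries. The part of glia or muscle in the Aqp4 differences was not tested.

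Aqp1 (chr6:55336432-55348555, plus strand) encodes a water channel of endothelium, in the blood and lymph vessels of the gut wall. Its range was 0.70 on the log2 scale. Its log2 values were 0.39 and 0.25 in miR-29a mice, -0.14 and 0.27 in miR-29b mice, -0.32 and -0.24 in NC-miR day 4 mice, -0.018 and 0.059 in NC-miR day 2 mice, and 0.13 and -0.0038 in normal mice. Both NC-miR day 4 libraries lay below all 8 others, the reverse of Aqp4. The differences from NC-miR day 4 were 0.60 ± 0.16 (1.51-fold) in miR-29a and 0.34 ± 0.16 in miR-29b, and NC-miR day 4 minus normal was -0.34 ± 0.16. The miR-29b value was 0.14 without the second miR-29b library and 0.55 without the first. The endothelium list (10 of 10 above the floor in all libraries) averaged 0.023 to 0.24 in miR-29a, 0.27 to 0.33 in miR-29b, -0.34 to 0.11 in NC-miR day 4, -0.39 to 0.053 in NC-miR day 2 and -0.26 to -0.067 in normal libraries. The first NC-miR day 4 library was low for Aqp1 although its list mean was positive, and the part of vessel markers in the Aqp1 differences was not tested.

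Aqp3 and Aqp7 encode aquaglyceroporins, which carry glycerol as well as water: Aqp3 in the basolateral membrane of epithelium and in skin, Aqp7 in adipocytes. They are neighbours on chromosome 4 (Aqp7 at chr4:41033074-41048139 and Aqp3 at chr4:41092722-41098183, both on the minus strand, 44582 bases apart). Aqp3 was at the floor in every library, including the one with squamous markers. There Krt4, Trp63 and Dsg3 were at it too, so a place at the floor is not read as lack of expression. Aqp7 was above the floor in 2 libraries, by 0.14 in the first NC-miR day 4 and 0.027 in the first miR-29a library. The adipocyte list had 9 of 10 markers above the floor in some library, and its mean ran from -0.49 to 0.73 in miR-29a, -0.42 to 0.63 in miR-29b, -0.26 to 0.30 in NC-miR day 4, 0.32 to 0.82 in NC-miR day 2 and -1.02 to 0.092 in normal libraries. Both genes were left out of the fit, and a difference below the floor was not detectable in these files.

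**Figure D1:**
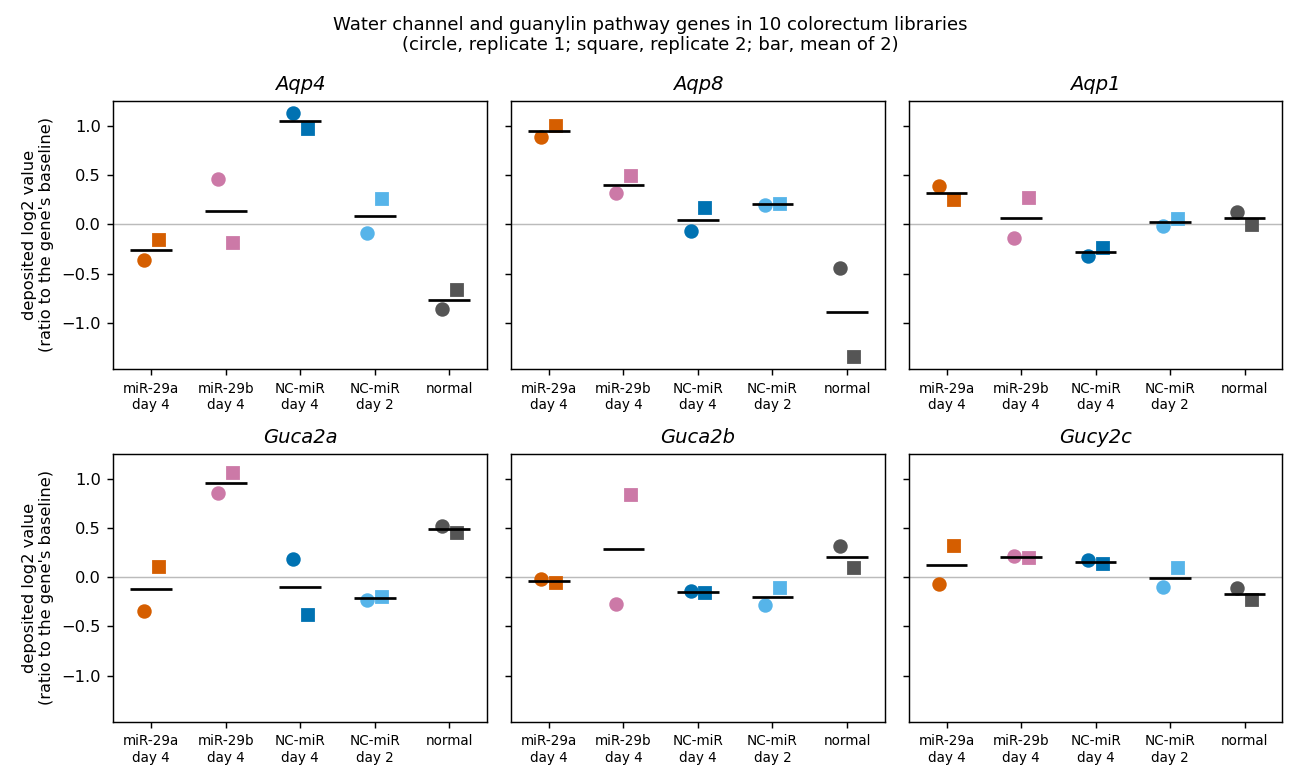
Deposited log2 values (vertical axis, ratio to each gene's baseline) of the 6 genes above the floor in the 5 groups, with circles for replicate 1, squares for replicate 2 and bars for the mean of 2. Aqp4 peaks in NC-miR day 4 (1.13 and 0.97), Aqp8 in miR-29a (0.89 and 1.00) and Guca2a in miR-29b (0.86 and 1.06).

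**Figure D2:**
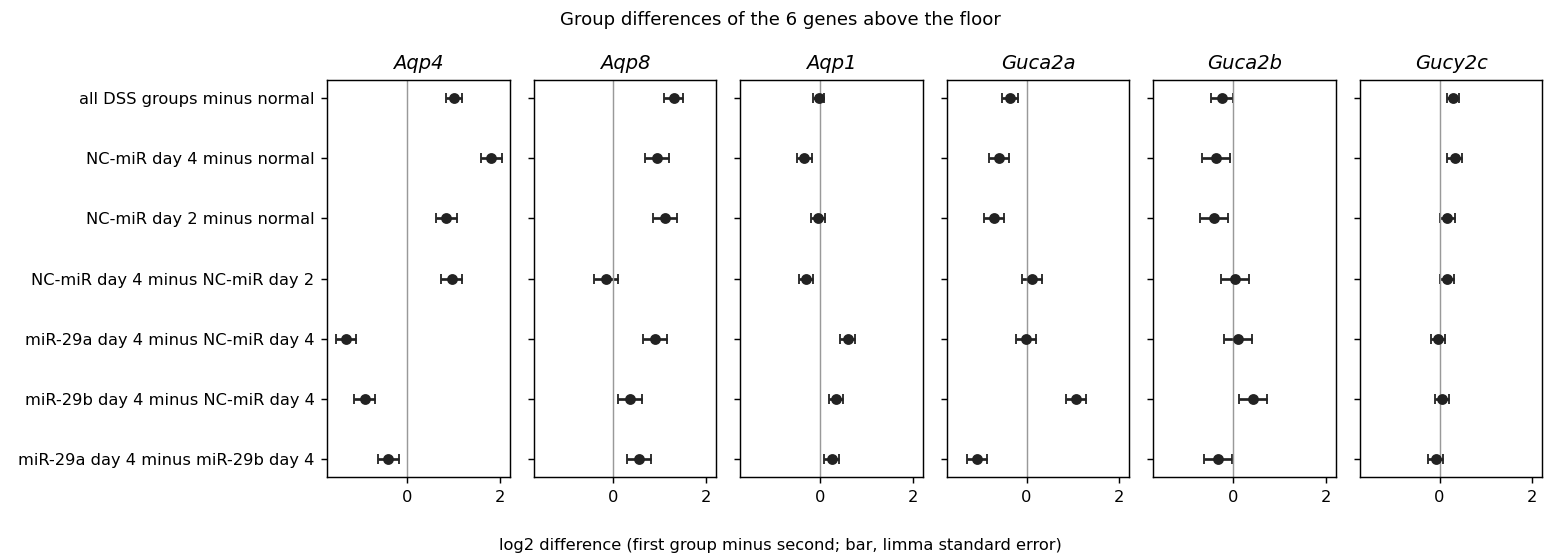
Log2 differences between groups (horizontal axis, first group minus second) of the same 6 genes, with points for the limma estimate and bars for its standard error, from 10 libraries. Aqp4 lies furthest to the right in NC-miR day 4 minus normal (1.82) and to the left in miR-29a minus NC-miR day 4 (-1.32).

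How common such differences were over all features gives the scale for these values. The limma fit covered 13050 features, and a feature was called where its Benjamini-Hochberg adjusted p was below 0.05. In NC-miR day 4 against normal, 1 of the 6 tested genes was called (Aqp4, higher), beside 0.383% of all features. Over all DSS groups against normal, 2 were called (Aqp4 and Aqp8, both higher), beside 1.42%. In NC-miR day 2 against normal, 0 of the 6 were called, beside 1.22%. None of the 6 was called in NC-miR day 4 against NC-miR day 2 (0.0153% of all features), miR-29a against NC-miR day 4 (0%), miR-29b against NC-miR day 4 (0%) or miR-29a against miR-29b (0%). In these last 3 comparisons limma called 0 features, with 996, 1627 and 970 at an unadjusted p below 0.05. The genes were chosen with these contrasts known, so nothing is read from the counts.

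Complete separation of the groups was common among all features. Except for normal, separation of 1 group from all other libraries was not counted over all features. Nor was separation of every neighbour in an order of means. In NC-miR day 2 against normal, 3 of the 6 genes lay wholly higher (Aqp4, Aqp8 and Gucy2c), beside 18.6% of all features, and 2 wholly lower (Guca2a and Guca2b), beside 30.5%. In NC-miR day 4 against normal, the same 3 lay wholly higher, beside 20.4%, and 3 wholly lower (those 2 and Aqp1), beside 27.8%. Over all 8 DSS libraries against normal, Aqp4, Aqp8 and Gucy2c again lay wholly higher, beside 5.74%, and 0 lower, beside 7.62%. In miR-29a against NC-miR day 4, 3 lay wholly higher (Aqp1, Aqp8 and Guca2b), beside 22.4%, and 1 lower (Aqp4), beside 19.3%. In miR-29b against NC-miR day 4, 4 lay wholly higher (Aqp1, Aqp8, Guca2a and Gucy2c), beside 22.7%, and 1 lower (Aqp4), beside 19.5%. The comparisons with normal share its libraries, and those with NC-miR day 4 share that group's.

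Among the other genes of sodium and water absorption, a few were above normal in DSS mice. This list, like those below, was chosen with earlier results of these data known, so its calls are a description and not evidence. Of 11 listed genes, all tested, 2 were called higher and 0 lower over all DSS groups against normal. Of all features, 1.42% were called in either direction. Of the 11, 10 lay above 0, with a median difference of 0.47 against -0.038 over all features. The genes called higher were the sodium channel subunit Scnn1a and the sodium pump subunit Atp1b1. The values of Scnn1a were 0.35 and 0.51 in miR-29a, 0.64 and 0.59 in miR-29b, 0.40 and 0.41 in NC-miR day 4, -0.0066 and 0.18 in NC-miR day 2, and -0.29 and -0.37 in normal libraries. All 8 DSS libraries lay above both normal libraries, with a difference of 0.71 ± 0.10 (1.64-fold, limma adjusted p = 0.018).

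Atp1b1 differed from normal by 0.61 ± 0.10 over all DSS groups (limma adjusted p = 0.031). Against normal, limma called 0 of the 11 in NC-miR day 4 mice, with 4 at an unadjusted p below 0.05, all higher, and a median of 0.38. Of all 13050 features tested, 1985 had such a p there. In NC-miR day 2 mice limma also called 0, with 6 at an unadjusted p below 0.05, 5 higher and 1 lower (the kinase gene Sgk1, -0.62). The median was 0.42, and 1988 of the 13050 features had such a p. The colonic proton-potassium pump Atp12a differed by 1.56 ± 0.30 over all DSS groups (limma adjusted p = 0.051). Hsd11b2, which shields the mineralocorticoid receptor from glucocorticoids, differed by 0.47 ± 0.13 (limma adjusted p = 0.13). Against NC-miR day 4, limma called 0 of the 11 in either miR-29 group, with 1 higher in miR-29a (Sgk1) and 1 lower in miR-29b (Slc12a2) at an unadjusted p below 0.05. Of the 13050 features, 996 (miR-29a) and 1627 (miR-29b) had such a p, so nothing is read from these single genes.

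These calls depended on single libraries, the normal ones among them. Without the second normal library the adjusted p was 0.23 for Scnn1a and 0.33 for Atp1b1, and without the first it was 0.12 for Scnn1a and 0.14 for Atp1b1. Atp1b1 kept its call in only 1 of the 10 fits that left out a library (without the second NC-miR day 2 library, limma adjusted p = 0.043). The surface colonocyte list (11 of 12 markers found, all above the floor) averaged 0.15 to 0.23 in miR-29a, 0.24 to 0.29 in miR-29b, 0.11 to 0.21 in NC-miR day 4, -0.051 to 0.019 in NC-miR day 2 and -0.21 to -0.029 in normal libraries, and its part in these differences and that of Aqp8 was not tested.

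**Figure D3:**
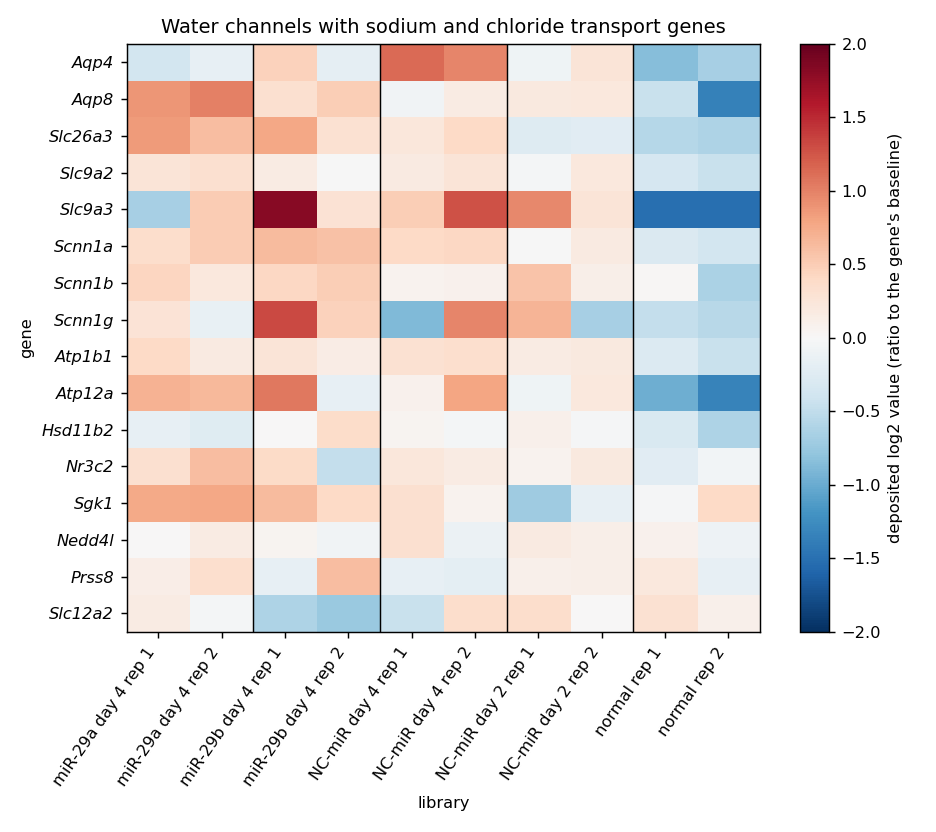
Deposited log2 values (colour, ratio to each gene's baseline) of Aqp4, Aqp8 and genes of salt transport and its control (rows) in the 10 libraries (columns, grouped). Scnn1a is at -0.29 and -0.37 in the normal libraries and at -0.0066 or above in all DSS libraries, and Slc9a3 is at the floor in both normal libraries.

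Among 16 listed effectors of the guanylin pathway, 13 were tested. Over all DSS groups against normal, 1 was called higher and 0 lower, where 1.42% of all features were called in either direction. Of the 13, 8 lay above 0, with a median of 0.11 against -0.038 over all features. The one was the chloride-bicarbonate exchanger Slc26a3, which had 0.86 and 0.62 in miR-29a, 0.77 and 0.30 in miR-29b, 0.22 and 0.39 in NC-miR day 4, -0.26 and -0.23 in NC-miR day 2, and -0.58 and -0.62 in normal libraries. All 8 DSS libraries lay above both normal libraries (difference 0.93 ± 0.14, 1.91-fold, limma adjusted p = 0.021). The adjusted p was 0.15 without the first normal library, 0.24 without the second and 0.068 with every feature tested.

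The sodium-proton exchanger Slc9a3, which guanylin signalling inhibits, lay at the floor in each normal library and above it in all 8 DSS libraries, with values of -0.66 and 0.51 in miR-29a, 1.82 and 0.28 in miR-29b, 0.49 and 1.27 in NC-miR day 4 and 0.97 and 0.26 in NC-miR day 2 libraries. Its fitted difference from normal, measured from the floor, was 2.13 ± 0.44 (limma adjusted p = 0.060). It passed the filter through the DSS groups, where it was high, and the true level in normal mice is not known. Slc9a2, a related exchanger, differed by 0.56 ± 0.11 (limma adjusted p = 0.055). The kinase gene Prkg2, which carries the signal to Cftr, and the phosphodiesterase gene Pde10a were at the floor throughout. Cftr itself was called by limma in 0 of the 7 comparisons, and its unadjusted p was 0.19 or more in each.

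Of 7 other aquaporins listed, only Aqp11, an intracellular member, was above the floor, and Mip, Aqp2, Aqp5, Aqp6, Aqp9 and Aqp12 were at it in all 10 libraries. Limma called Aqp11 in 0 of the 7 comparisons, 0 of them at an unadjusted p below 0.05. Its smallest p was for miR-29a minus NC-miR day 4, 0.27 ± 0.24 (limma adjusted p = 0.80). Among 9 other guanylyl cyclases and natriuretic peptides, 4 were tested and limma called 0 in any comparison, with 1 of 28 tests at an unadjusted p below 0.05. Over all 13050 features tested, 837 to 2181 per comparison had such a p. The smallest p was for the receptor gene Npr1, -0.48 ± 0.21 in NC-miR day 2 minus normal (limma adjusted p = 0.32). Npr1 was at the floor in 2 libraries, the first NC-miR day 2 and the second NC-miR day 4. Its difference is thus partly measured from the floor. Next was the receptor gene Npr2, 0.60 ± 0.27 in miR-29b minus NC-miR day 4 (limma adjusted p = 0.40).

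Of 10 intestinal transcription factors, 9 were tested and limma called 0, with 5 of 63 tests over the 7 comparisons at an unadjusted p below 0.05. Over all 13050 features tested, 837 to 2181 per comparison had such a p, so nothing is read from these counts. Cdx1 differed by 0.45 ± 0.18 between miR-29b and NC-miR day 4 mice (limma adjusted p = 0.38), and Hnf4a by 0.28 ± 0.12 between all DSS groups and normal (limma adjusted p = 0.28). Of 8 genes of glycerol handling, 8 were tested and limma called 0, with 6 of 56 tests at an unadjusted p below 0.05, beside the same range over all features. The glycerol kinase family gene Gk5 differed by -0.68 ± 0.22 between NC-miR day 2 and normal mice (limma adjusted p = 0.20), and Agpat2, an enzyme of phosphatidic acid synthesis, by 0.39 ± 0.14 between miR-29b and NC-miR day 4 mice (limma adjusted p = 0.38).

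**Figure D4:**
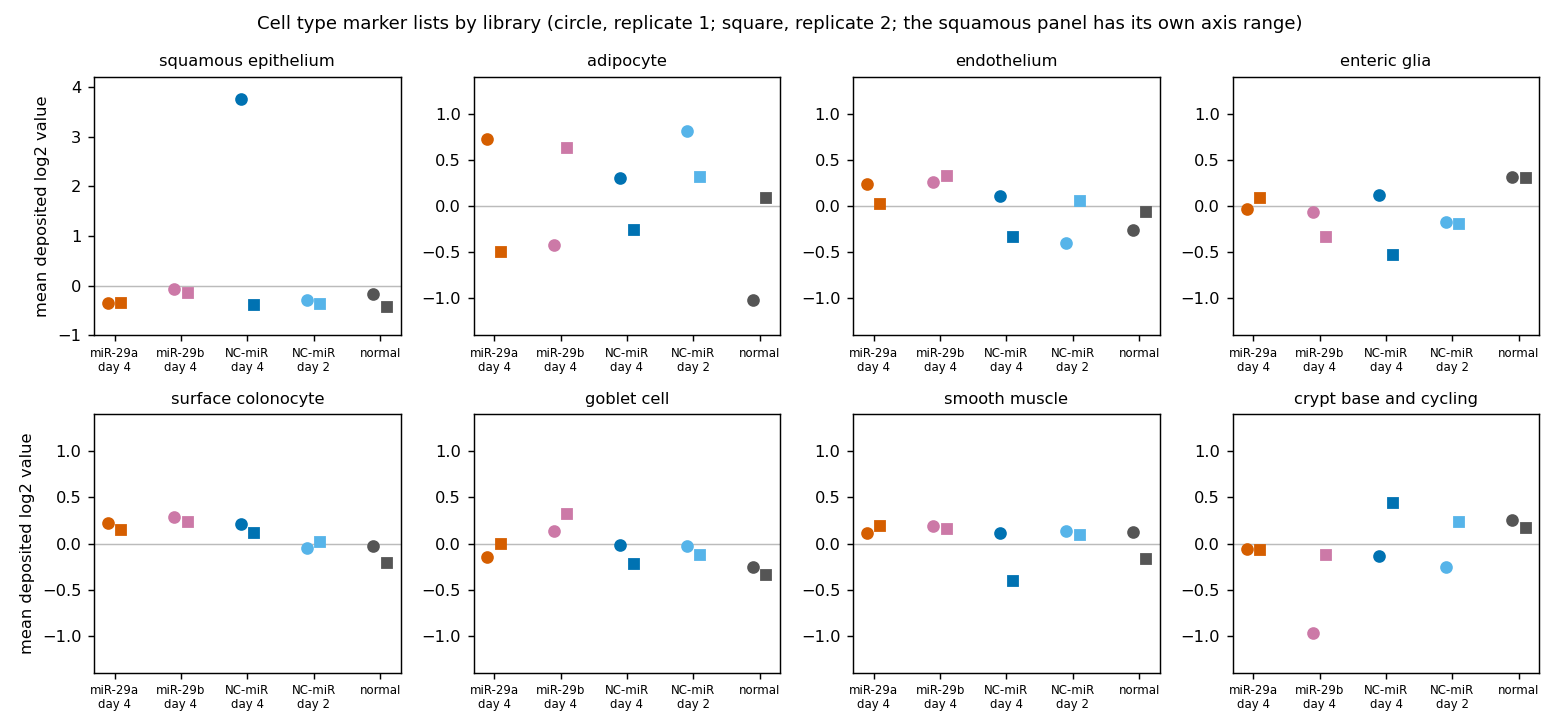
Mean deposited log2 value (vertical axis) of 8 cell type marker lists in each library, with circles for replicate 1 and squares for replicate 2; the squamous panel has its own axis range. The first NC-miR day 4 library stands at 3.76 for squamous markers, and the goblet list is highest in the miR-29b libraries (0.14 and 0.32).

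Genes with the most similar pattern over the 10 libraries were listed by Pearson r among 11312 features, as a description. Guca2a was closest to Atp6v0d1 (r = 0.970), Sh3bgrl3 (0.963) and Ethe1 (0.960). Guca2b was closest to Vps25 (0.961), Ilkap (0.958) and Polr2d (0.952), and Gucy2c to Igfbp2 (0.947), Scmh1 (0.916) and Rgs16 (0.903). Aqp8 was closest to Auh (0.961), the lipid droplet gene Plin2 (0.955) and Cyp2d12 (0.949). Aqp4 was closest to Baz1a (0.946) and D19Ertd386e (0.942), and Aqp1 to Ilvbl (0.974), Rpl18 (0.955) and Ddx47 (0.952). Among the members themselves, r was -0.74 for Aqp1 with Aqp4, 0.65 for Aqp8 with Gucy2c and 0.59 for Aqp4 with Gucy2c, where the shared libraries of 5 groups are the points.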

How the data were processed

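Per the submitters' processing notes, Cuffnorm 2.2.1, TopHat2 2.0.13, SAMtools 0.1.19 and Bowtie2 2.2.3 belong to the processing, with the build mm10; settings are not given in the sources used here. Libraries were made with a stranded mRNA kit, per the labels' protocols. Per the file headers the values are FPKM, but the deposited numbers are log2 values relative to a baseline of each gene (negative and positive), so they were tested as log2 values and not as the FPKM that the design assumed. The height of the floor is not stated, so levels cannot be recovered. A feature was at the floor in libraries sharing its lowest value (tolerance 0.0001 after subtracting the library's most frequent value) if 2 or more did.

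A feature was kept where both libraries of some group exceeded the floor (13050 of 23284). Kept features were fitted with limma 3.58.1 in R 4.3.3: 5 group means over 10 libraries, 5 residual and 3.26 prior degrees of freedom, no trend, 2-sided p, Benjamini-Hochberg adjustment. The mean of the 4 DSS groups was also set against normal. The fit was tested on simulated data. Genes named from 6 pathway lists were those called in any of the 7 comparisons and the 2 others of smallest p; each member's 3 nearest features by r were named. A gene of the absorption list and a nearest feature of Aqp4 are not reported here. The members and lists were chosen with earlier results of these data known. Alternatives were other filters and scalings, a replicate block, a robust fit, fits to the groups compared and leaving out each library. Sequences came from RefSeq and GENCODE M21.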

Additional observations from a re-analysis of the deposited data

Results flagged for a closer look

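Slc9a2, an epithelial sodium-proton exchanger, moved in opposite directions in the miR-29 groups when each library was set against the NC-miR day 4 mean: 0.043 and 0.11 in the miR-29a libraries, and -0.044 and -0.22 in the miR-29b libraries. That is what drew attention to it. The Slc9a2 values were 0.17 and 0.25 in NC-miR day 4, 0.26 and 0.33 in miR-29a, and 0.17 and -0.0031 in miR-29b libraries. The nearest values of each miR-29 group and NC-miR day 4 thus almost met. How often features move in this way was not counted. The gap between the groups was 0.2078 on the log2 scale, and the test of the difference itself gave 0.21 ± 0.14 (limma adjusted p = 0.73, n = 2 per group), so it did not pass.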

How the results depend on the processing

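Counts of calls over all features depended on the filter and on single libraries, and the cause was not tested. With every feature tested, limma called 28 (NC-miR day 2 against normal, 159 in the fit reported), 22 (NC-miR day 4 against normal, 50), 65 (all DSS groups against normal, 185), 1 (miR-29a against NC-miR day 4, 0) and 1 (miR-29b against NC-miR day 4, 0). Fits to the compared groups alone called 44 for NC-miR day 2 against normal, 2 for miR-29a and 4 for miR-29b against NC-miR day 4, and 3 for miR-29a against miR-29b; pathway calls were 1 in NC-miR day 4 against normal (0 as reported). NC-miR day 4 against NC-miR day 2 (2 calls) gave 0 with the stricter filter and 1 each with quantile normalization and the robust fit, and quantile normalization gave 1 call in each miR-29 group against NC-miR day 4.

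With 1 library left out, calls ran from 16 to 273 for NC-miR day 2 against normal, 6 to 82 for NC-miR day 4 against normal, 10 to 318 for all DSS groups, 0 to 94 for NC-miR day 4 against NC-miR day 2, 0 to 3 for miR-29a and 0 to 4 for miR-29b against NC-miR day 4, and 0 to 1 for miR-29a against miR-29b. Pathway calls over all DSS groups (3 as reported) ran from 0, without either normal library, to 4, and were 5 with the stricter filter and 5 with the floor constant subtracted. The lowest counts over all features against normal came without the second normal library.

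The replicate block left 30 calls in NC-miR day 4 against normal; Atp1b1 had an adjusted p of 0.051 with it and Aqp4 was no longer called over all DSS groups. Deviations of same-numbered libraries from their group means correlated between -0.24 and 0.11. With 2 libraries per group, these values cannot show whether same-numbered libraries were handled together.

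With every feature tested, Aqp4 and Aqp8 lost all their calls. The Aqp4 call in NC-miR day 4 against normal was also lost without any 1 of the 4 libraries compared. Over all DSS groups, the Aqp4 call was lost without either miR-29a, NC-miR day 4 or normal library, and the Aqp8 call without either miR-29a or miR-29b library or the second normal library. Without the first normal library, Aqp8 was called in NC-miR day 2 against normal. Of 708 alternative values of the members' differences, 38 moved by more than 1 SD and 13 changed sign. Of the 38, 4 did not come from leaving out a library, all of them Aqp4 with quantile normalization, where NC-miR day 4 minus normal was 2.11. Aqp11 in miR-29a minus NC-miR day 4 was -0.038 without the second miR-29a library and 0.59 without the first.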
